A study of Sus scrofa with 2 samples.

Results

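Thymic invariant natural killer T (iNKT) cells of the pig were compared by their content of S100A4 and S100A6 transcripts. S100A4-positive cells carried at least 2 unique molecular identifiers (UMIs, each standing for 1 captured transcript) of S100A4 (ENSSSCG00000006578) and at least 1 of S100A6 (ENSSSCG00000021084). S100A4-negative cells carried 0 UMIs of both. The iNKT library held 12097 barcodes, and 11273 of them passed a floor of 500 detected genes and a ceiling of 10% for UMIs of the 13 mitochondrial genes. A depth of 3000 to 6000 UMIs was then required, which left 7243 cells, and 33 cells with more than 1 UMI over TOP2A, UBE2C, PCLAF and TK1, genes of dividing cells, were left out. Of the 7210 cells that remained, 1592 (22.1%) were S100A4-positive, 3408 (47.3%) were S100A4-negative and 2210 lay between. The whole series held 21209 barcodes.

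The donors of the thymi were 22-week-old mixed-breed pigs that had received no treatment. iNKT cells were taken with magnetic beads from the thymi that also gave the total thymocytes, live cells of each kind were sorted by flow cytometry, and the cells of 2 pigs were then put together in 1 library of iNKT thymocytes and 1 library of total thymocytes. The 3′ ends of transcripts were read in droplets, with 54457966 UMIs in the iNKT library (per barcode, 4074 UMIs and 1480 genes at the median) and 29723207 UMIs in the total thymocyte library. With 1 library of each kind there was no replicate, so no test was run: levels are UMIs summed over cells and scaled to a total of 1000000 (CPM), ratios are S100A4-positive over S100A4-negative, and every interval is an exact 95% interval that covers counting error only.

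The semi-invariant T cell receptor of iNKT cells recognises lipids on CD1d, and the cells are selected in the thymus by double-positive thymocytes. During maturation their precursors acquire the transcription factor ZBTB16 (PLZF) and effector programmes, and cells that leave the thymus use the factor KLF2 and the sphingosine-1-phosphate receptor S1PR1. S100A4 and S100A6 are small calcium-binding proteins. S100A4 binds non-muscle myosin and is known for its part in cell movement, and in mice and humans S100 family transcripts are abundant in effector and memory T cells.

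S100A4 itself had a median of 5 UMIs per S100A4-positive cell (quartiles 3 and 10, highest 38) and S100A6 a median of 3 (quartiles 1 and 5, highest 66). These values chose the cells and are given as a description. Both kinds of cell carried the iNKT markers. CD3E stood at 1293 CPM in S100A4-positive and 1205 CPM in S100A4-negative cells, ZBTB16 at 190 and 237 CPM, and CD5, a receptor-induced surface protein, at 738 and 736 CPM. TNFRSF4 differed most of the 9, at 1580 and 1128 CPM, a ratio of 1.40 (1.37 to 1.44). The 9 iNKT markers summed to 4587 CPM in S100A4-positive and 4065 CPM in S100A4-negative cells, against 2184 CPM in total thymocytes. Not all of the 9 followed the sum. CD3E was higher in total thymocytes, at 1339 CPM, as was SLAMF1, at 72.5 CPM against 45.6 and 45.1 CPM. The other members were lower there, with ZBTB16 at 1.03 CPM. Double-positive thymocyte markers were nearly absent, with a summed level over 8 genes of 0.891 CPM in S100A4-positive and 2.52 CPM in S100A4-negative cells, against 1542 CPM in total thymocytes; RAG1, PTCRA, DNTT and CD1E were at 0 in both. The 10 myeloid markers found summed to 7.72 and 6.6 CPM with LYZ at 0 in both, and the 4 erythroid and platelet markers found to 1.48 and 2.31 CPM. The 8 B and plasma cell markers summed to 123 CPM in S100A4-positive and 137 CPM in S100A4-negative cells, nearly all of it CD79A at 106 and 124 CPM, while CD79B stood at 0.594 and 0.680 CPM. The 6 cytotoxic markers found summed to 48.1 and 65.2 CPM, and the 8 epithelial and stromal markers to 3.27 and 5.37 CPM. Summed levels of gamma-delta T cell markers were 862 CPM in S100A4-positive and 729 CPM in S100A4-negative cells (TRDC 0 in both), of CD8 single-positive markers 41.1 and 40.2 CPM, of regulatory T cell markers 78.1 and 98.2 CPM, and of plasmacytoid dendritic cell markers 8.17 and 5.92 CPM. All of these lineages were lower than in total thymocytes; the 3 markers of CD4 single-positive cells, at 456 and 473 CPM, were above the 161 CPM there. What part other cell types had in the results below was not tested.

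Depth and quality were close: S100A4-positive cells had a median of 4139 UMIs, 1497 genes and 4.53% mitochondrial UMIs, and S100A4-negative cells 4236 UMIs, 1510 genes and 5.0%. Ribosomal protein genes took a median of 26.3% of UMIs in S100A4-positive and 26.5% in S100A4-negative cells. The libraries shared 41 barcodes, 16 of them among the cells compared.

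The iNKT library itself fell into 2 sets of cells, and they held S100A4-positive cells in very different shares. A feature without a symbol (ENSSSCG00000033734), listed in the deposited gene table between ZFY and KDM5D, had 4 or more UMIs in 3807 of the 7210 cells and at most 1 UMI in 3326, with 77 cells between. The Y-linked genes followed it. EIF1AY stood at 82.3 CPM in the cells high for the feature and 0.706 CPM in the cells low for it, a ratio of 116 (63.1 to 243). ZFY stood at 24.3 and 0.424 CPM, and KDM5D at 15.7 and 0.0706 CPM. The sets are called Y-transcript-high and Y-transcript-low below. Cells of 2 pigs were in the library, the labels give neither a sex nor an animal for a cell, and set and animal cannot be told apart. The feature's mean UMIs per cell in the low set were 0.541% of those in the high set. Between the sets, 101 of 8700 genes were at least 2-fold higher in the high set (1.16%) and 54 lower (0.621%).

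Of the Y-transcript-high cells 35.1% (33.6 to 36.7) were S100A4-positive, and of the Y-transcript-low cells 7.01% (6.16 to 7.93). S100A4-negative cells made up 26.6% of the high set and 71.1% of the low set. Read the other way, 1337 of the 1592 S100A4-positive cells (84.0%) and 1014 of the 3408 S100A4-negative cells (29.8%) were Y-transcript-high. S100A4 over all cells of a set stood at 805 CPM in the high set and 135 CPM in the low set, and S100A6 at 441 and 192 CPM. Their relatives ran the other way: S100A10 stood at 543 CPM in the high and 780 CPM in the low set, and S100A11 at 248 and 314 CPM. A comparison over all cells therefore also compares the sets, so ratios below are given within the Y-transcript-high cells (1337 positive, 1014 negative) and within the Y-transcript-low cells (233 positive, 2364 negative), and values over all cells are named as such. This split was chosen after the data had been seen.

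**Figure D1:**
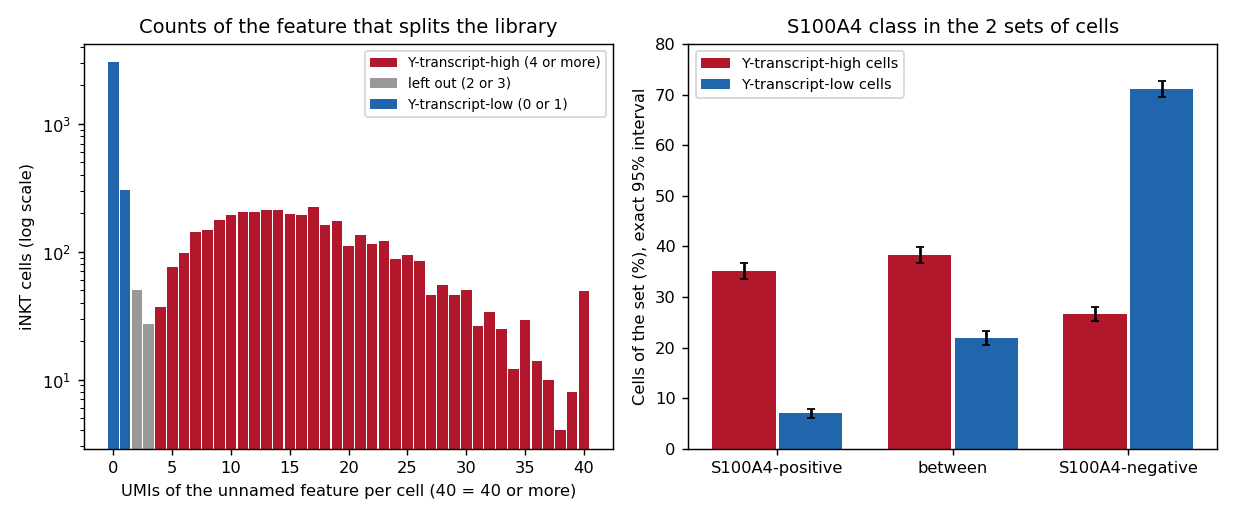
Left, number of iNKT cells (log axis) by UMIs of the unnamed feature per cell; right, share of each set (%) that was S100A4-positive, between the classes, or S100A4-negative, with exact 95% intervals. Counts of the feature form a peak at 0 and a broad peak above 4 UMIs, and S100A4-positive cells make up 35.1% of the Y-transcript-high and 7.01% of the Y-transcript-low set.

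Across genes, those higher in S100A4-positive cells of both sets included CD9, S1PR1, CXCR4, ITGA5, FLNA, PLEC and CAPG, and those lower in both included SATB1, TOX2, MYB, ID2 and CCR9. Among genes with at least 100 UMIs over both groups, leaving out those of the rule, a gene was counted where its ratio was at least 1.5 or at most 1/1.5. Over all cells, 258 of 8201 genes were higher by that measure (3.15%) and 258 lower (3.15%), 516 in all (6.29%). At 2-fold these were 66 higher (0.805%) and 60 lower (0.732%). Of 6624 genes with that many UMIs in each set, 183 were higher (2.76%) and 183 lower (2.76%) in the Y-transcript-high set, and 213 higher (3.22%) and 567 lower (8.56%) in the Y-transcript-low set, where the S100A4-positive cells were fewest. In both sets 91 genes were higher (1.37%) and 84 lower (1.27%); with TMM scaling these counts were 108 and 60. In the lists to which named genes belong, 3 of 17 egress and homing genes and 3 of 34 actin and cell shape genes were higher in both sets, and 4 of 11 immature thymocyte transcripts were lower. Of 3 chemokine receptors 1 was higher and 1 lower in both. Of 28 iNKT and T lineage factors 5 were lower, and of 16 growth-related and iNKT-enriched genes 2 were higher. Another 8 genes (0.121%) passed in opposite directions. Ratios of the sets lay on the same side of 1 for 4336 of the 6624 genes. The choice of genes named from both sets was made after the split had been seen.

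**Figure D2:**
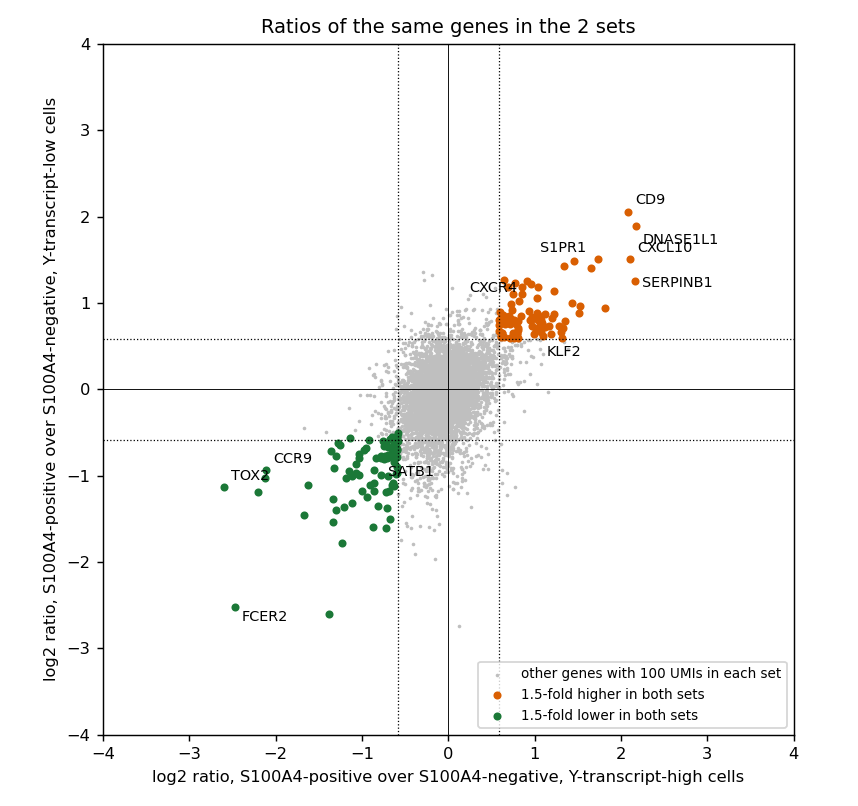
Each point is 1 of 6624 genes, with its log2 ratio of S100A4-positive over S100A4-negative cells in Y-transcript-high cells on the x axis and in Y-transcript-low cells on the y axis; dotted lines mark 1.5-fold. The 91 genes higher in both sets (orange) include CD9 and S1PR1, and the 84 lower in both (green) include FCER2, TOX2 and CCR9.

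CD9 (ENSSSCG00000022230), a tetraspanin of the cell membrane, had the highest lower bound in both sets, that is, the highest value of the smaller of its 2 lower bounds. Its level was 235 CPM in S100A4-positive and 55.6 CPM in S100A4-negative cells of the high set, a ratio of 4.22 (3.69 to 4.86), and 181 and 43.6 CPM in the low set, a ratio of 4.16 (3.48 to 4.96). The size of the difference was thus nearly the same in both sets. CD9 was seen in 44.0% of S100A4-positive and 13.7% of S100A4-negative cells of the high set, and in 34.3% and 11.6% of those of the low set, after each cell had been thinned to 3000 UMIs. For comparison, 1680 total thymocytes had at least 2 UMIs of RAG1, RAG2, PTCRA, DNTT and CD1E and are called early-transcript thymocytes below. That rule holds neither CD4 nor CD8, so whether these cells were double-positive was not tested. Their median depth was 6172 UMIs, above the ceiling required of the cells compared, so most of them lay outside that depth filter. Thinned in the same way, 0.179% of them had a CD9 UMI.

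S1PR1 (ENSSSCG00000029849), the receptor by which mature thymocytes follow sphingosine-1-phosphate into blood, stood at 81.9 CPM in S100A4-positive and 24.5 CPM in S100A4-negative cells of the high set, a ratio of 3.34 (2.71 to 4.15). In the low set it stood at 93.8 and 33.1 CPM, a ratio of 2.84 (2.23 to 3.58). KLF2, which drives S1PR1 transcription, stood at 779.5 and 374 CPM in the high set (2.08, 1.97 to 2.20) and at 839 and 564 CPM in the low set (1.49, 1.38 to 1.60). The S100A4-negative cells of the high set thus had the lowest KLF2 of the 4 groups, and the S100A4-positive groups lay close together. KLF2 had a UMI in 82.6% of S100A4-positive and 52.1% of S100A4-negative cells of the high set and in 85.0% and 65.4% of those of the low set, thinned, against 2.92% of early-transcript thymocytes.

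Of the 17 egress and homing genes with 100 UMIs, 5 were higher over all cells and none lower, against 3.15% each way of all genes. In both sets 3 were higher, against 1.37% of all genes. These were S1PR1, KLF3 (ratios of 2.45 in the high and 1.65 in the low set) and S1PR4 (2.07 and 1.62). The median log2 ratio of the 17 was 0.24 over all cells, 0.25 in the high set and 0.34 in the low set. Medians over all genes were -0.02, -0.06 and -0.04. The other members stayed under 1.5-fold in at least 1 set, and 3 of the 17 were below 1 in both. CCR7, the receptor for lymph node chemokines, had ratios of 1.19 and 0.986. Those below 1 were CD69, which holds S1PR1 off the cell surface (0.745 and 0.771), the integrin chain ITGAL (0.804 and 0.815) and GPR183, an oxysterol receptor (0.878 and 0.799).

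The chemokine receptors CXCR4 and CCR9 went in opposite directions. CXCR4, receptor for CXCL12, stood at 77.3 CPM in S100A4-positive and 37.6 CPM in S100A4-negative cells of the high set (2.06, 1.72 to 2.47) and at 149 and 65.5 CPM in the low set (2.28, 1.89 to 2.72). Early-transcript thymocytes had it in 70.5% of cells, thinned, far above the 17.6% of S100A4-positive cells of the high set and 25.3% of those of the low set. CCR9, receptor for the thymic and gut chemokine CCL25, stood at 18.6 and 80.6 CPM in the high set (0.231, 0.184 to 0.287) and at 37.3 and 72.3 CPM in the low set (0.516, 0.361 to 0.718). In S100A4-negative cells CCR9 was thus at about the same level in both sets.

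Single genes of adhesion and the cytoskeleton were also higher. ITGA5, the alpha chain of the fibronectin receptor, stood at 32.0 CPM in S100A4-positive and 10.1 CPM in S100A4-negative cells of the high set (3.16, 2.27 to 4.49) and at 24.2 and 9.28 CPM in the low set (2.61, 1.59 to 4.12). PLEC, a linker of cytoskeletal filaments, had ratios of 2.56 (1.84 to 3.61) and 2.66 (1.79 to 3.87). FLNA, an actin crosslinker, stood at 86.3 and 42.3 CPM in the high set (2.04, 1.72 to 2.43) and at 148 and 80.5 CPM in the low set (1.84, 1.53 to 2.20). Over all cells FLNA was at 96.1 CPM in S100A4-positive and 69.3 CPM in S100A4-negative cells, a ratio of 1.39 (1.26 to 1.53). The low set, which held most of the S100A4-negative cells, had the higher level in both classes.

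CAPG (ENSSSCG00000008239), which caps actin filaments, is an abundant example. It stood at 1057 CPM in S100A4-positive and 501 CPM in S100A4-negative cells of the high set (2.11, 2.01 to 2.22) and at 1375 and 819 CPM in the low set (1.68, 1.58 to 1.78). The S100A4-negative cells of the high set were the lowest of the 4 groups, as they were for KLF2 and FLNA. In the actin and cell shape list 3 of 35 members were higher over all cells and none lower, against 3.15% each way of all genes. In both sets 3 of 34 were higher, against 1.37% of all genes, namely CAPG, FLNA and the myosin MYO1G (1.72 and 1.57). The median log2 ratio of the list was 0.11 over all cells, 0.17 in the high and 0.16 in the low set. Medians over all genes were -0.02, -0.06 and -0.04. VIM, the intermediate filament vimentin, had ratios of 1.29 and 1.47, and TMSB10, an actin-binding peptide, 1.16 and 1.25, both short of 1.5-fold. Of the 34 members 5 were below 1 in both sets, among them the actin-binding PFN1 (0.914 and 0.873) and ARPC3, of the actin-branching complex (0.918 and 0.924).

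**Figure D3:**
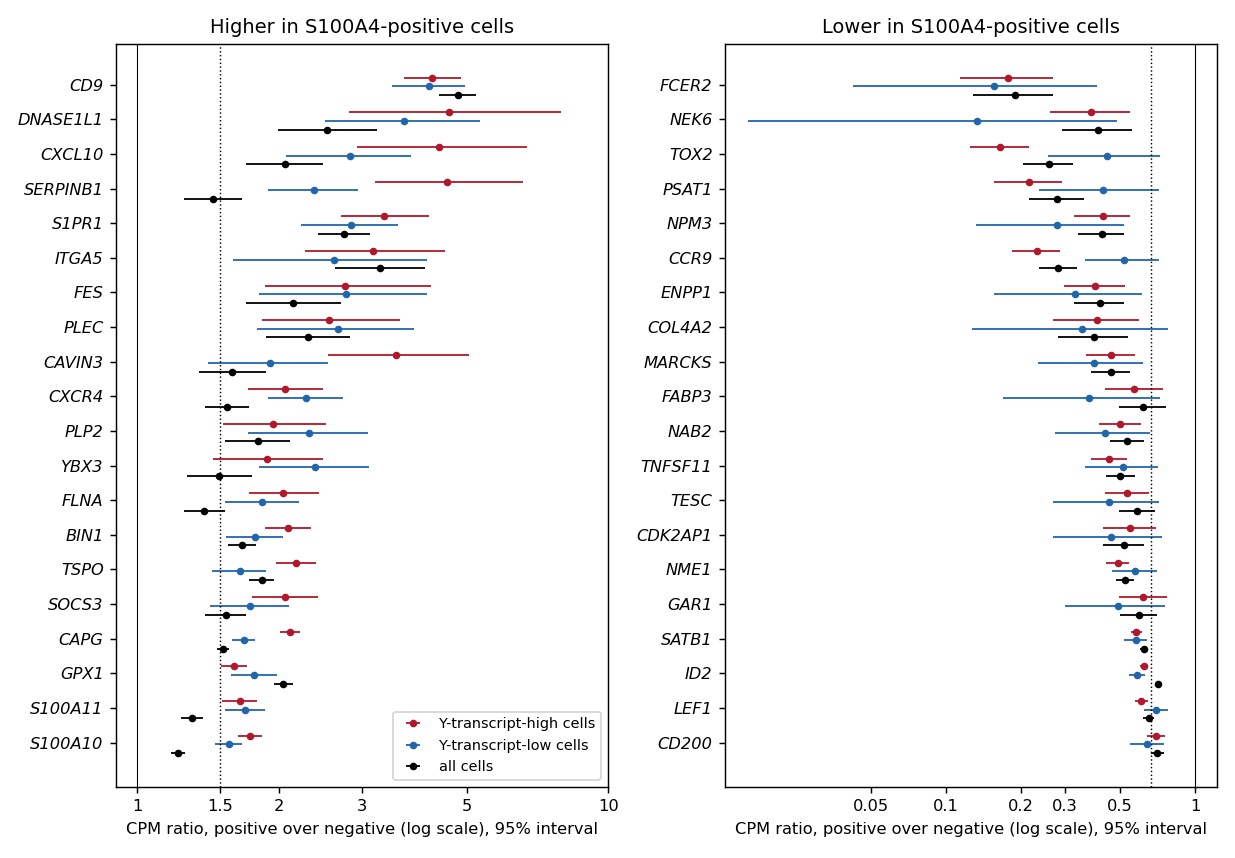
CPM ratios of S100A4-positive over S100A4-negative cells (log axis) with exact 95% intervals for the 20 genes highest and the 20 lowest in both sets, in Y-transcript-high cells (red), Y-transcript-low cells (blue) and all cells (black); the dotted line marks 1.5-fold. Ratios of SERPINB1, FLNA, S100A10 and S100A11 are above 1.5 in each set and below it over all cells.

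The other S100 and annexin genes were no part of the rule. Of them S100A10, S100A11, ANXA1 and ANXA5 were, like FLNA, at least 1.5-fold higher in both sets and below that over all cells. S100A10, the partner of annexin A2, stood at 677 CPM in S100A4-positive and 391 CPM in S100A4-negative cells of the high set (1.73, 1.64 to 1.83) and at 1098 and 703 CPM in the low set (1.56, 1.46 to 1.66), yet its ratio over all cells was 1.22 (1.18 to 1.26). S100A11 had ratios of 1.65 (1.51 to 1.79) and 1.69 (1.53 to 1.87), and 1.31 over all cells. ANXA1, an annexin with known anti-inflammatory action, had 1.99 (1.76 to 2.24) and 1.55 (1.36 to 1.77), and 1.30 over all cells. ANXA5, which binds phosphatidylserine, stood at 21.1 CPM in S100A4-positive and 10.1 CPM in S100A4-negative cells of the high set (2.08, 1.46 to 3.0) and at 70.6 and 43.0 CPM in the low set (1.64, 1.26 to 2.11). Over all cells its ratio was 0.882 (0.743 to 1.04). That interval includes 1, so the difference of ANXA5 within the sets was not seen in the pooled value.

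Over all cells 1 of 10 measured family members was higher, S100A1 at 2.42 (1.81 to 3.24), against 3.15% of all genes. The median log2 ratio of the family was 0.10, beside -0.02 over all genes. S100A1 had 77 UMIs in S100A4-positive and 30 in S100A4-negative cells of the high set (2.02, 1.31 to 3.19) and 25 and 62 in the low set (4.12, 2.48 to 6.65), where its UMIs were fewer than 100. Within the sets 4 of 8 were higher in both, namely S100A10, S100A11, ANXA1 and ANXA5, against 1.37% of all genes. Family medians were 0.58 in the high and 0.52 in the low set, beside -0.06 and -0.04 over all genes. ANXA2 had ratios of 1.36 and 1.19 and ANXA6 1.27 and 1.32, neither past 1.5-fold. ANXA7 had ratios of 1.03 (0.899 to 1.19) and 0.967 (0.769 to 1.20). ANXA11 had 1.06 (0.919 to 1.23) and 0.792 (0.603 to 1.02). All of these intervals include 1. S100A2 was sparse, with 23 UMIs in S100A4-positive and 3 in S100A4-negative cells over the whole library. Other S100 genes with a row, S100A8 and S100A12 of myeloid cells among them, had at most 7 UMIs in either set.

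Other named genes higher in both sets have a range of known roles. GPX1, a peroxide-removing enzyme, stood at 525 CPM in S100A4-positive and 328 CPM in S100A4-negative cells of the high set (1.60, 1.5 to 1.71) and at 368 and 208 CPM in the low set (1.77, 1.58 to 1.98). TSPO, a protein of the outer mitochondrial membrane, had ratios of 2.17 (1.97 to 2.39) and 1.65 (1.44 to 1.88), and BIN1, which bends membranes, 2.08 (1.86 to 2.33) and 1.78 (1.54 to 2.04). SERPINB1, an inhibitor of granule proteases, stood at 38.7 and 8.55 CPM in the high set (4.53, 3.2 to 6.58) and at 105 and 44.2 CPM in the low set (2.37, 1.90 to 2.94). Over all cells its ratio was 1.45, below the threshold.

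DNASE1L1, a nuclease of the DNase I family, stood at 19.6 CPM in S100A4-positive and 4.28 CPM in S100A4-negative cells of the high set (4.59, 2.81 to 7.92) and at 40.3 and 11 CPM in the low set (3.68, 2.5 to 5.33). FES, a tyrosine kinase, had 2.76 and 2.77, PLP2, a membrane protein, 1.94 and 2.32, YBX3, an RNA-binding protein, 1.89 and 2.38, SOCS3, an inhibitor of cytokine signalling, 2.06 and 1.73, and CAVIN3, a caveola protein, 3.55 and 1.91. CXCL10, an interferon-induced chemokine, had ratios of 4.37 and 2.83, but its UMIs were in few cells. In the high set 24 S100A4-positive and 15 S100A4-negative cells had any, and 1 S100A4-positive cell held 82. Without the highest cell of each group the ratios were 3.27 and 1.26, and in the deeper part of the UMI range the ratio over all cells was 0.275.

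Fewer transcripts in S100A4-positive cells were found for several transcription factors. SATB1 (ENSSSCG00000011201), a chromatin organiser of developing T cells, stood at 464 CPM in S100A4-positive and 798 CPM in S100A4-negative cells of the high set (0.581, 0.552 to 0.611) and at 403 and 699 CPM in the low set (0.577, 0.520 to 0.638). ID2 (ENSSSCG00000008645), an inhibitor of E-proteins, stood at 1046 and 1678 CPM in the high set (0.623, 0.602 to 0.645) and at 755 and 1295 CPM in the low set (0.583, 0.541 to 0.628). Both genes were abundant and the ratios nearly equal between sets. TOX2, a DNA-binding protein of the TOX family, stood at 12 and 73.1 CPM in the high set (0.165, 0.125 to 0.214) and at 17.1 and 38.6 CPM in the low set (0.444, 0.256 to 0.720). MYB, a factor of progenitors and thymocytes, had ratios of 0.549 (0.386 to 0.778) and 0.413 (0.164 to 0.870). RUNX3, a factor of cytotoxic lineages, had 0.642 (0.509 to 0.809) and 0.451 (0.222 to 0.821). In the low set MYB and RUNX3 rest on 7 and 11 UMIs in S100A4-positive cells.

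LEF1, a partner of beta-catenin in thymocytes, stood at 322 CPM in S100A4-positive and 529 CPM in S100A4-negative cells of the high set (0.608) and at 336 and 483 CPM in the low set (0.696), just short of the threshold there. Its relative TCF7 had ratios of 1.35 and 1.44, on the other side of 1. ZBTB16 had ratios of 0.883 and 0.831, GATA3 0.922 and 0.979, and TOX 0.889 and 0.961, none near 1.5-fold. Of 28 iNKT and T lineage factors with 100 UMIs in each set, none was higher and 5 were lower in both, namely SATB1, TOX2, ID2, MYB and RUNX3, with medians of -0.11 in the high and -0.09 in the low set. Of all genes 1.37% were higher and 1.27% lower in both sets. Of 11 immature thymocyte transcripts none was higher and 4 were lower in both sets, SATB1, TOX2, MYB and CCR9. Their medians were -0.23 and -0.40, beside -0.06 and -0.04 over all genes. Of the 11, 9 were below 1 in both sets, TOX and TCF12 (0.851 and 0.880) among those that did not pass. For all genes, 4336 of 6624 had both ratios on the same side of 1, either way. Both intervals of TCF12 (0.682 to 1.06 and 0.576 to 1.30) and of CD27 (0.651 to 1.31 and 0.463 to 1.77) include 1. ID3 (1.17 and 0.94) and CD38 (1.30 and 0.993), the rest of the 11, were above 1 in the high set.

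FCER2, the low-affinity receptor for IgE, had the lowest upper bound in both sets, with 28 UMIs in S100A4-positive and 124 in S100A4-negative cells of the high set (0.178, 0.113 to 0.269) and 4 against 263 in the low set (0.155, 0.0420 to 0.403). TNFSF11 (RANKL), a ligand by which T cells act on medullary thymic epithelium, stood at 40.5 and 89.8 CPM in the high set (0.451, 0.382 to 0.532) and at 39.3 and 76.8 CPM in the low set (0.512, 0.361 to 0.706). Other named genes are known for nucleotide, amino acid and ribosome synthesis. NME1, a nucleoside diphosphate kinase, had ratios of 0.489 (0.438 to 0.544) and 0.574 (0.465 to 0.702), PSAT1, of serine synthesis, 0.215 and 0.427, NPM3, a nucleolar chaperone, 0.425 and 0.278, and GAR1, of the particles that modify ribosomal RNA, 0.617 and 0.489. No ribosome synthesis list was counted, so these 4 genes stand for themselves.

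ENPP1, an ectoenzyme, had ratios of 0.396 and 0.328, MARCKS, a membrane-bound actin regulator, 0.459 and 0.393, NAB2, which represses EGR factors, 0.501 and 0.434, CD200, an inhibitory surface ligand, 0.696 and 0.643, and COL4A2, a collagen chain, 0.403 and 0.350. EGR2, a target of receptor signalling in iNKT precursors, had 0.598 (0.453 to 0.787) and 0.617 (0.347 to 1.02). The low-set interval of EGR2 includes 1, from 16 UMIs in S100A4-positive cells. In the low set NEK6 had 2 UMIs in S100A4-positive and 154 in S100A4-negative cells, and FABP3 9 and 246, so their intervals there are wide. CTSW, a protease of cytotoxic cells, stood at 360 and 799 CPM in the high set (0.450, 0.426 to 0.475) and at 463 and 538 CPM in the low set (0.860, 0.780 to 0.946), below 1 in both but beyond 1.5-fold in the high set alone.

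Of 12 cytokine and ligand genes with 100 UMIs in each set, 2 were higher in both (TGFB1 at 1.70 and 1.74, TNFSF8 at 1.82 and 2.24) and 1 was lower in both (TNFSF11, above), against 1.37% and 1.27% of all genes. CCL4, a chemokine, had 1.32 in the high and 0.512 in the low set. IL4 stood at 24.4 CPM in S100A4-positive and 22.7 CPM in S100A4-negative cells of the high set (1.07, 0.825 to 1.40) and at 31.3 and 23.2 CPM in the low set (1.35, 0.895 to 1.96). After thinning, 6.06% and 5.72% of cells of the high set had an IL4 UMI, and 8.15% and 5.63% of the low set, against 0 of 1680 early-transcript thymocytes. That count has an upper bound of 0.219% for cells with a UMI at this depth, which is no limit on the share of cells that express IL4. Both intervals of the ratio include 1, so a difference in IL4 was not detectable at this depth. IFNG had 0 UMIs in both groups. CCL5, a chemokine of cytotoxic cells, had 2 UMIs in S100A4-positive and 27 in S100A4-negative cells of the high set and 0 and 178 in the low set, and XCL1, another, 6 and 59 in the high and 2 and 112 in the low set. Over all cells these were ratios of 0.0212 and 0.102, but the UMIs were in 11 and 29 S100A4-negative cells, and 1 cell held 54 of CCL5.

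TNFRSF4 (OX40), a costimulatory receptor, stood at 1623 CPM in S100A4-positive and 1038 CPM in S100A4-negative cells of the high set (1.56, 1.51 to 1.62) and at 1373 and 1165 CPM in the low set (1.18, 1.11 to 1.25). Among 28 genes of the T cell receptor response TAGAP, a signalling adaptor, was higher in both sets (2.05 and 2.05), and EGR2 and SPRY2, an inhibitor of receptor signalling, were lower in both. Among the 13 cytotoxic and NK receptor genes none passed 1.5-fold in both sets, nor did any of 23 immediate early and heat shock genes, 17 cytokine receptors, 25 genes of the T cell receptor complex, 9 of antigen presentation, 15 of glycolysis or 10 of G2 and M phase. Of 16 growth-related and iNKT-enriched genes CD9 and GPX1 were higher in both, and of 18 survival and death genes CYCS, which is also in the next list, was lower. Of 44 nuclear genes of oxidative phosphorylation CYCS, cytochrome c, was lower in both (0.645 and 0.639), with medians of -0.07 and -0.12. Of 14 S phase genes MCM6, of the replicative helicase, was lower in both (0.508 and 0.599), and 5 of 19 were lower over all cells. Of all genes 1.37% were higher and 1.27% lower in both sets, and 3.15% were lower over all cells. The 1 gene of 44 thus differs little from the share in both sets. The rule had removed cells with more than 1 of 4 cycle UMIs, and over all cells 2.95% of S100A4-positive and 3.73% of S100A4-negative cells had 1.

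Interferon-stimulated genes show how the sets enter the pooled values. Over all cells 8 of 30 were higher and none lower, against 3.15% each way of all genes. The median log2 ratio was 0.36, beside -0.02 over all genes. Within the sets medians were 0.24 in the high and 0.22 in the low set, beside -0.06 and -0.04 over all genes. In both sets 3 of 28 were higher, against 1.37% of all genes. These 3 were BST2, which tethers viruses to the membrane (1.58 and 1.71), RSAD2, an antiviral enzyme (1.53 and 1.75), and the factor IRF1 (1.75 and 1.5). OAS2, a sensor of double-stranded RNA, had a ratio of 2.38 (2.10 to 2.70) over all cells and of 1.34 and 1.18 within the sets. Its level over all cells of a set was 77.3 CPM in the high and 19.5 CPM in the low set. ISG15, an abundant member, had ratios of 1.16 and 1.17. The median number of UMIs of the whole list per cell was 14 in S100A4-positive and 12 in S100A4-negative cells of the high set, and 11 and 9 in those of the low set.

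**Figure D4:**
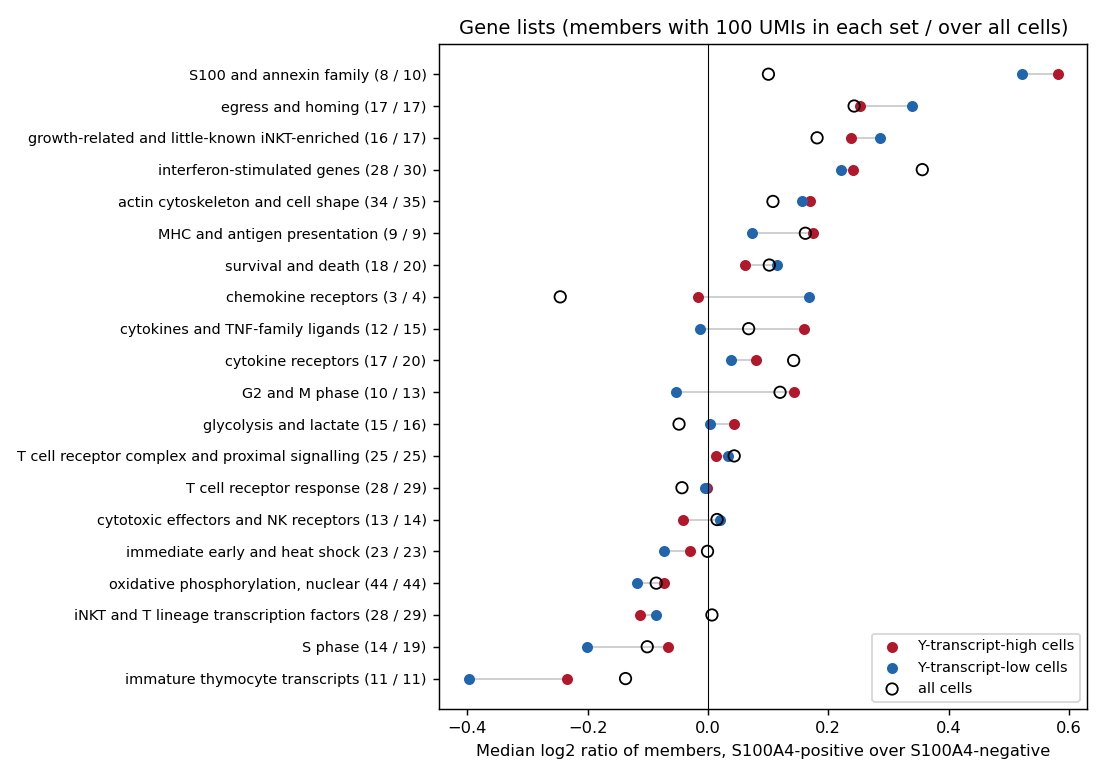
Median log2 ratio of S100A4-positive over S100A4-negative cells for 20 gene lists, in Y-transcript-high cells (red), Y-transcript-low cells (blue) and all cells (open circles); numbers beside a name are its genes with 100 UMIs in each set and over all cells. The S100 and annexin list lies at 0.58 and 0.52 within the sets and 0.10 over all cells, and the immature thymocyte list at -0.23 and -0.40.

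Of the 258 genes higher over all cells, 131 had 100 UMIs in each set. Of these 61 were past 1.5-fold in both sets, 125 were above 1 in both and 25 passed in neither. Of the 258 lower genes, 104 had 100 UMIs in each set, 57 passed in both, 100 were below 1 in both and 16 passed in neither. Among the 15 genes with the highest lower bound over all cells were EIF1AY at 2.77 and KDM5D at 3.08, which within the high set had 1.02 (0.890 to 1.18) and 1.11 (0.789 to 1.57). SH3BGRL2 had 3.05 (2.67 to 3.49) over all cells and 1.23 (1.06 to 1.41) in the high set. It stood at 80.7 CPM in the high and 4.73 CPM in the low set. CENPE, a mitotic motor, had 2.62 over all cells and 1.21 (0.95 to 1.54) and 1.24 (0.319 to 3.48) within the sets, at 28.5 CPM in the high and 3.25 CPM in the low set. ITIH5, a hyaluronan-binding protein, had 4.45 over all cells and 1.70 (1.36 to 2.14) in the high set, where 253 of its 257 UMIs from S100A4-positive cells were.

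Genes lower over all cells held similar cases. EIF3I, a subunit of a translation initiation factor, stood at 229 CPM in S100A4-positive and 543 CPM in S100A4-negative cells over the whole library, a ratio of 0.421 (0.398 to 0.444). Within the sets its ratio was 0.805 (0.731 to 0.885) and 0.927 (0.854 to 1.01), and its level was 168 CPM in the high and 688 CPM in the low set. COL18A1, a collagen, had 0.212 over all cells, 2.75 (0.524 to 27.1, from 7 and 2 UMIs) in the high and 0.838 (0.582 to 1.17) in the low set. It stood at 0.740 CPM in the high and 44.2 CPM in the low set. C1orf115 had 0.326 over all cells, 0.361 in the high and 0.973 in the low set, and DGAT2, of triglyceride synthesis, 6 and 160 UMIs over all cells, 0 and 6 of them in the high set. Of the 30 genes named over all cells, 28 had both ratios on the side of their pooled value, the exceptions being COL18A1 and KDM5D, which had 0 UMIs in both classes of the low set. The 30 were picked by pooled ratios of the same cells, so such a match is partly built in. For all genes, 4336 of 6624 had both ratios on the same side of 1. Some of the 28 lay close to 1 in a set, as EIF1AY in the high set (1.02) and C1orf115 and EIF3I in the low set (0.973 and 0.927). Among the 28 were SGPP2, which degrades phosphorylated sphingoid bases (7.06 over all cells, 4.77 and 2.72 within the sets), the myosin MYO1F (4.09, 5.03 and 2.47), the factors KLF11 (2.86, 2.17 and 3.34) and IRF5 (2.85, 3.19 and 1.96), and UBD, a ubiquitin-like protein (2.37, 2.89 and 1.93). On the lower side were NRCAM, a cell adhesion molecule (0.0957, 0.139 and 0.211), RASGEF1A (0.120, 0.0944 and 0.374), PAICS, of purine synthesis (0.238, 0.214 and 0.403), and COL4A1, a collagen chain (0.310, 0.228 and 0.461). The low-set intervals of RASGEF1A (0.0755 to 1.13) and PAICS (0.0813 to 1.22), from 3 UMIs each in S100A4-positive cells, include 1. So do those of SGPP2 (0.658 to 8.55), MYO1F (0.912 to 5.75) and IRF5 (0.843 to 4.04), from 4, 7 and 9 such UMIs. CD93 had 0.244 over all cells, with 0 UMIs in S100A4-positive cells of the low set.

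Levels of several genes differed by degrees with S100A4 and S100A6, not at the threshold alone, though not every step ran the same way. CD9 in the high set stood at 55.6 CPM with 0 UMIs of both, 101 CPM with 1 UMI in all, 195 CPM with 1 UMI of S100A4 and at least 1 of S100A6, 224 CPM with 2 of S100A4, 223 CPM with 3 to 5 and 245 CPM with 6 or more. In the low set the same steps gave 43.6, 79.3, 131, 146, 145 and 251 CPM. KLF2 in the high set gave 374, 521, 712, 770.1, 775 and 785 CPM, so most of its difference lay between 0 UMIs and 1 UMI of each gene. SATB1 in the high set gave 798, 624, 529, 457, 468.5 and 462 CPM, and ID2 1678, 1298, 1327, 1081, 1091 and 1008 CPM. The 268 cells just inside the threshold had 2 UMIs of S100A4 and at least 1 of S100A6, and the 415 just outside had 1 of S100A4. In the high set the 212 inside and the 292 outside had S1PR1 at 91.4 and 75.3 CPM and SATB1 at 457 and 529 CPM. In the low set the 54 inside and the 121 outside had S1PR1 at 115 and 70.6 CPM and SATB1 at 457 and 536 CPM. With more S100A4, S1PR1 in the low set fell back, to 101 CPM with 3 to 5 UMIs and 70.9 CPM (45.4 to 105) with 6 or more. Over the steps of 2, 3 to 5 and 6 or more, CCR9 there gave 26.6, 30.4 and 53.1 CPM and ID2 603, 791 and 812 CPM. SATB1 there gave 457, 400 and 372 CPM. CD9 is in the steps above. The share of Y-transcript-high cells was 79.1% inside and 70.4% outside.

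**Figure D5:**
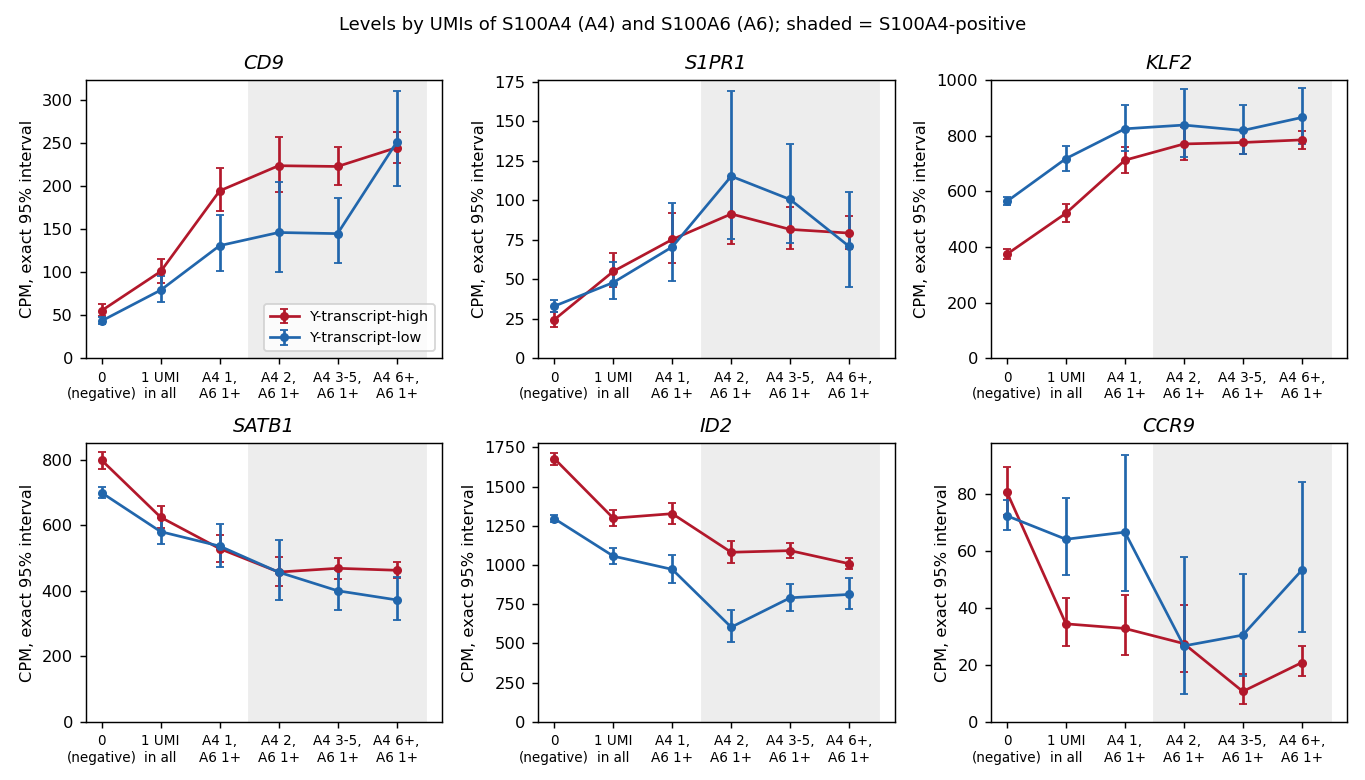
Level in CPM with exact 95% intervals of 6 genes in cells grouped by UMIs of S100A4 (A4) and S100A6 (A6), for Y-transcript-high (red) and Y-transcript-low cells (blue); the shaded groups are S100A4-positive. CD9, S1PR1 and KLF2 are lowest and SATB1, ID2 and CCR9 highest at 0 UMIs of both genes in the high set.

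Cells with only 1 of the S100 genes lay between the classes for CD9, and for SATB1 the cells with S100A6 alone lay at the level of S100A4-positive cells. The 544 cells with at least 2 UMIs of S100A4 and 0 of S100A6 had CD9 at 133 CPM and SATB1 at 536 CPM over all cells, and the 432 cells with 0 of S100A4 and at least 2 of S100A6 had 169 and 447 CPM. Of the cells with S100A4 alone 84.6% were Y-transcript-high, and of those with S100A6 alone 54.9%. Within the high set CD9 stood at 143 CPM with S100A4 alone and 173 CPM with S100A6 alone, and CAPG at 739 and 925 CPM. Within the low set CD9 stood at 81.9 CPM with S100A4 alone and 163 CPM with S100A6 alone, and CAPG at 1097 and 1185 CPM.

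Per cell, 8 of the genes that were higher (CD9, S1PR1, CAPG, CXCR4, ITGA5, FLNA, TSPO and SERPINB1, chosen after their values were seen) were counted as detected or not after thinning. In the high set S100A4-positive cells had a mean of 2.74 and S100A4-negative cells of 1.43, and in the low set 2.97 and 1.91. At least 3 of the 8 were found in 55.9% of S100A4-positive and 14.1% of S100A4-negative cells of the high set, and in 63.1% and 28.4% of those of the low set. Cells between the classes lay between them, at 38.8% and 49.2%. Within S100A4-positive cells of the high set S1PR1 was seen in 24.1% of cells with CD9 and 18.4% of cells without it. CCR9 was seen there in 3.40% and 6.01%. In those of the low set S1PR1 was seen in 27.5% and 16.3%, and CCR9 in 11.25% and 8.497%. The direction for CCR9 thus differed between the sets, and in the low set it rests on 22 cells with a CCR9 UMI.

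Over the 7210 cells, thinned, Spearman correlations with the sum of S100A4 and S100A6 were low and are a description only; depth and library were shared by all cells. Among 7598 genes the highest was CD9 at 0.316, with 0.293 over the 3807 Y-transcript-high and 0.204 over the 3326 Y-transcript-low cells. CAPG had 0.246 over all cells, 0.371 in the high and 0.241 in the low set, and KLF2 0.224, 0.294 and 0.182. B2M, the light chain of MHC class I, had 0.275, 0.233 and 0.158. The lowest was EIF3I at -0.301, with -0.058 and -0.030 within the sets, while SATB1 had -0.184, -0.186 and -0.168.

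The same rule was applied to total thymocytes, which had 1694 cells within the filters. S100A4-positive cells numbered 39 (2.30%, 1.64 to 3.13) against 22.1% of iNKT thymocytes, and S100A4-negative cells 1579. Without a UMI of RAG1, RAG2, PTCRA, DNTT or CD1E there were 1055 cells with 34 positive (3.22%, 2.24 to 4.47) and 953 negative. Of all cells within the filters 26 of 715 Y-transcript-high cells (3.64%, 2.39 to 5.28) and 10 of 924 Y-transcript-low cells (1.08%, 0.520 to 1.98) were positive. Among cells without those early UMIs 23 of 625 Y-transcript-high cells (3.68%, 2.35 to 5.47) and 9 of 392 Y-transcript-low cells (2.30%, 1.06 to 4.31) were positive, with intervals that overlap.

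Gene values in total thymocytes were not split by set and rest on the 34 S100A4-positive cells without those UMIs. There 659 of 4627 genes were at least 1.5-fold higher in S100A4-positive cells (14.2%) and 815 lower (17.6%). Of the 20 genes highest in both iNKT sets 11 had 100 UMIs there, of which 8 were at least 1.5-fold higher and 1 (CXCL10, 0 and 151 UMIs) was lower. Of the 20 lowest, 16 had that many, 11 were lower and 1 (TESC, 9 and 106 UMIs) was higher. GPX1 stood at 580 CPM in S100A4-positive and 117 CPM in S100A4-negative cells, FLNA at 255 and 34.2 CPM, S100A10 at 364 and 50.6 CPM, and SATB1 at 179 and 803 CPM. CD9 had 12 UMIs in S100A4-positive and 3 in S100A4-negative cells, and ID2 stood at 574 and 410 CPM, not lower as in iNKT cells. Total thymocytes are a mixture of cell types, and the part of cell type in these values was not tested.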

How the data were processed

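UMI counts per gene and barcode were used as deposited: whole numbers, not normalized. Per the submitters' processing notes the tools were Cell Ranger 3.1 (3.1.0 per the file headers) and Seurat 3.1; the kit was Chromium 3′ version 3.1. The genome build is not given in the sources used here. Of 21301 genes, 14846 had a symbol in the deposited gene list and 687 more in a table of gene names; 15513 symbols were usable after 10 repeated ones, GZMA among them, were set aside.

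Cells were chosen by the filters given with the results. UMIs were summed over cells, scaled to the group's total, and compared as ratios with exact conditional binomial intervals; CPM has exact Poisson and shares exact Clopper-Pearson intervals, all at 95%. With 1 library there was no replicate and no test across samples. Log2 ratios had 0.5 added to each sum. Shares used cells thinned to 3000 UMIs. Named genes were the 15 with the highest lower and the 15 with the lowest upper bound over all cells, the 20 most extreme each way in both sets, and members of 21 gene lists past 1.5-fold with the most UMIs. Other list members named are there for their role and were picked with values known. The cells, lists and genes were chosen with earlier results of these data known. Scrublet called 1 of 11273 cells a doublet, so calling did not work and doublets remain; an alternative left out the 902 highest scores. Splitting cells by the Y-linked feature, the genes named from both sets and the 8 genes counted per cell were chosen after values had been seen. The calculation of ratios and intervals was tested on simulated UMI sums with counting error only. Spread between cells was not simulated, so that test does not cover it. Tools were Python, numpy, scipy, scanpy and edgeR (TMM factors only).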

Additional observations from a re-analysis of the deposited data

Results flagged for a closer look

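Among 6624 genes with 100 UMIs in each set, 8 (0.121%) were at least 1.5-fold higher in S100A4-positive cells of one set and at least 1.5-fold lower in those of the other. The difference between the sets was not tested, since each set is part of 1 library. PRKCZ, an atypical protein kinase C, had a ratio of S100A4-positive over S100A4-negative cells of 0.660 in Y-transcript-high and 1.77 in Y-transcript-low cells, and METTL6, an RNA methyltransferase, 0.657 and 1.59. The other genes were higher in the high set. SREBF2, a factor of sterol synthesis, had 1.72 and 0.428, SMPD4, a sphingomyelinase, 1.61 and 0.469, FAM110A 1.61 and 0.395, MLLT11 1.54 and 0.462, INCA1 1.54 and 0.519, and MCUR1, a regulator of mitochondrial calcium uptake, 1.53 and 0.619. The low-set intervals of METTL6 (0.874 to 2.70), SMPD4 (0.149 to 1.13) and MCUR1 (0.315 to 1.11) include 1. In that set SMPD4, FAM110A and SREBF2 rest on 5, 6 and 7 UMIs in S100A4-positive cells.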

How the results depend on the processing

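Of 1239 single-gene values, 1076 stayed inside the interval reported over all cells, 161 left it without a reversal, and 2 turned. These were COL18A1, to 2.75 in Y-transcript-high cells, and CXCL10, to 0.275 in the deeper part of the UMI range. Floors of 20 and 300 UMIs leave a gene's ratio as it was, so their values are among the 1076 by construction. Apart from the Y-transcript-high and Y-transcript-low cells as settings, the values are ratios over all cells. Ratios within the sets were not varied among them. Counts depended on thresholds. For 258 genes higher over all cells, 2-fold gave 66, at least 20 UMIs 586 and at least 300 UMIs 125; for 258 lower, 60, 662 and 87, and Y-transcript-low cells alone 632. For 91 higher in both sets, 2-fold gave 11, 20 UMIs 190 and 300 UMIs 48; for 84 lower, 17, 253 and 25. These 2 counts were 55 and 49 in the shallower part of the UMI range, 53 and 38 for S100A4 at least 2 against 0, and 59 and 53 at 5% mitochondrial UMIs or less. Without cells carrying a marker UMI of other lineages (41.4% of S100A4-positive and 46.2% of S100A4-negative cells) 52 were lower. With fewer cells fewer genes reach 100 UMIs; beyond that the cause was not tested. Leaving out single top cells and the split by the Y-linked feature were added after seeing the data. The split by XIST was not run, since no gene of that symbol was found. No paired analysis was possible because there is 1 library per kind and ratios come from no test. Precision is limited by the 233 S100A4-positive cells of the low set and the 34 of total thymocytes.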
